A study of Mus musculus with 9 samples.

Results

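The genes described here are those of the proteasome and its assembly factors, taken by symbol from microarrays of mouse embryonic stem cells. A gene entered when a probe set carried its symbol alone and the symbol was Pomp or Psm followed by a letter from a to g and a number. Where a gene had several such probe sets, the brightest was to stand for it, but each gene had 1. The rule gave 42 genes, and all 42 were among the 9911 probe sets tested out of 10476 deposited. Of these genes, 41 encode subunits, assembly factors or regulators of the proteasome. The remaining one, Psme3ip1, matches the pattern of letters but encodes a protein that binds the activator Psme3.

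The proteasome degrades proteins that carry chains of ubiquitin. Its core particle is a barrel of alpha and beta rings with the protease sites of Psmb5, Psmb6 and Psmb7 on the inside, and its regulatory particle binds the substrate, removes the ubiquitin and threads the chain into the barrel. The regulatory particle consists of a base, with a ring of ATPases, and a lid, with the deubiquitinase Psmd14. Human embryonic stem cells are known for high proteasome activity, and when proteasomes are inhibited the transcription factor Nfe2l1 raises the subunit genes together.

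E14 is an established line of mouse embryonic stem cells, kept here undifferentiated in serum with LIF, a cytokine that maintains pluripotency. The cells received DMSO alone, 0.1 μM 5-ITu or 1.0 μM 5-ITu for 26 h, with 3 arrays per condition. 5-ITu is an adenosine analogue that inhibits Haspin, the kinase that phosphorylates histone H3 in mitosis. Values are log2 signals from Affymetrix Mouse Gene 2.0 ST arrays as the authors normalized them, and a background threshold of 8.46 on this scale follows the study's methods.

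The study asked how the inhibitor affects gene expression in these cells, and the comparisons here are those of each dose with DMSO and of the doses with each other. One limma model covered the 9 arrays, with Benjamini-Hochberg adjustment of its p-values over all 9911 tested probe sets. A gene is called, and is said to have risen or fallen, at an adjusted p under 0.05. Changes are given as log2 fold changes and SDs are taken over the 3 arrays of a condition. Each interval is a 95% confidence interval from the fit. Signals of different genes are not set against each other, because probes differ in brightness. RNA came from whole cultures, so fewer cells of a kind and less RNA per cell cannot be told apart.

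Each array held 9469 to 9780 probe sets above background, and its median signal was 9.71 to 9.75. Of 10 markers of embryonic stem cells, 9 were measured and 8 lay above background on all 9 arrays. The log2 of the summed 9 was 15.15 to 15.22 in DMSO, 15.25 to 15.26 at 0.1 μM and 15.15 to 15.19 at 1.0 μM. Among them Klf4 rose at 1.0 μM against DMSO (0.77), and Tdgf1 (-0.24) and Utf1 (-0.24) fell. Fewer markers of other cells were measured: 4 of 8 for fibroblasts, 2 of 6 for macrophages (Cd68 and Laptm5), 2 of 5 for primitive endoderm, 2 of 5 for trophectoderm and 0 of 3 for mesoderm. Of the fibroblast markers, 2 lay above background on all 9 arrays. The log2 of the summed macrophage markers was 10.78 to 11.00 in DMSO, 11.46 to 11.59 at 0.1 μM and 11.64 to 11.65 at 1.0 μM, and that of the fibroblast markers 10.78 to 10.83, 11.06 to 11.26 and 10.74 to 10.88. For primitive endoderm it was 9.75 to 9.86, 10.07 to 10.13 and 9.68 to 9.83, and for trophectoderm 11.05 to 11.08, 11.17 to 11.44 and 11.26 to 11.45. Cd68 (0.72 and 0.91) and Laptm5 (0.33 and 0.30) rose at 0.1 μM and 1.0 μM against DMSO. The fibroblast markers were mixed at 1.0 μM. Tagln fell (-0.59), and Acta2 (0.21), Cald1 (0.15) and Thy1 (0.27) read higher but were not called. The part of these markers in the results was not tested.

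Most proteasome genes differed little between conditions. The median size of their changes was 0.069 at 0.1 μM and 0.062 at 1.0 μM, against 0.084 and 0.119 over all tested probe sets. Their replicates also spread less. The median SD was 0.070 against 0.086 in DMSO, 0.031 against 0.042 at 0.1 μM and 0.061 against 0.075 at 1.0 μM. Changes under 0.1 in size were found for 30 of 42 genes at 0.1 μM, where 57.1% of tested probe sets had one, and for 30 of 42 at 1.0 μM, where 43.7% had one. Between the doses it was 27 of 42, where 42.7% of probe sets had one. Below 0 lay 27 of 42 genes at 0.1 μM (49.5% of probe sets), 21 at 1.0 μM (51.3%) and 17 for 1.0 μM against 0.1 μM (51.2%), where 25 lay above 0 (48.8% of probe sets). The signed medians were -0.032 and -0.0017 for the proteasome genes and 0.0015 and -0.0056 for all tested probe sets. The study's methods took a p under 0.05 from a one-way analysis of variance and a 1.5-fold change as thresholds. With limma's unadjusted p of each comparison in its place, none of the 42 genes passed both at 0.1 μM (0.706% of tested probe sets did), at 1.0 μM (2.97%) or between the doses (2.87%). The widest interval of any gene reached 0.28 to either side, for Psme2, which is narrower than the 0.58 that corresponds to 1.5-fold.

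**Figure D1:**
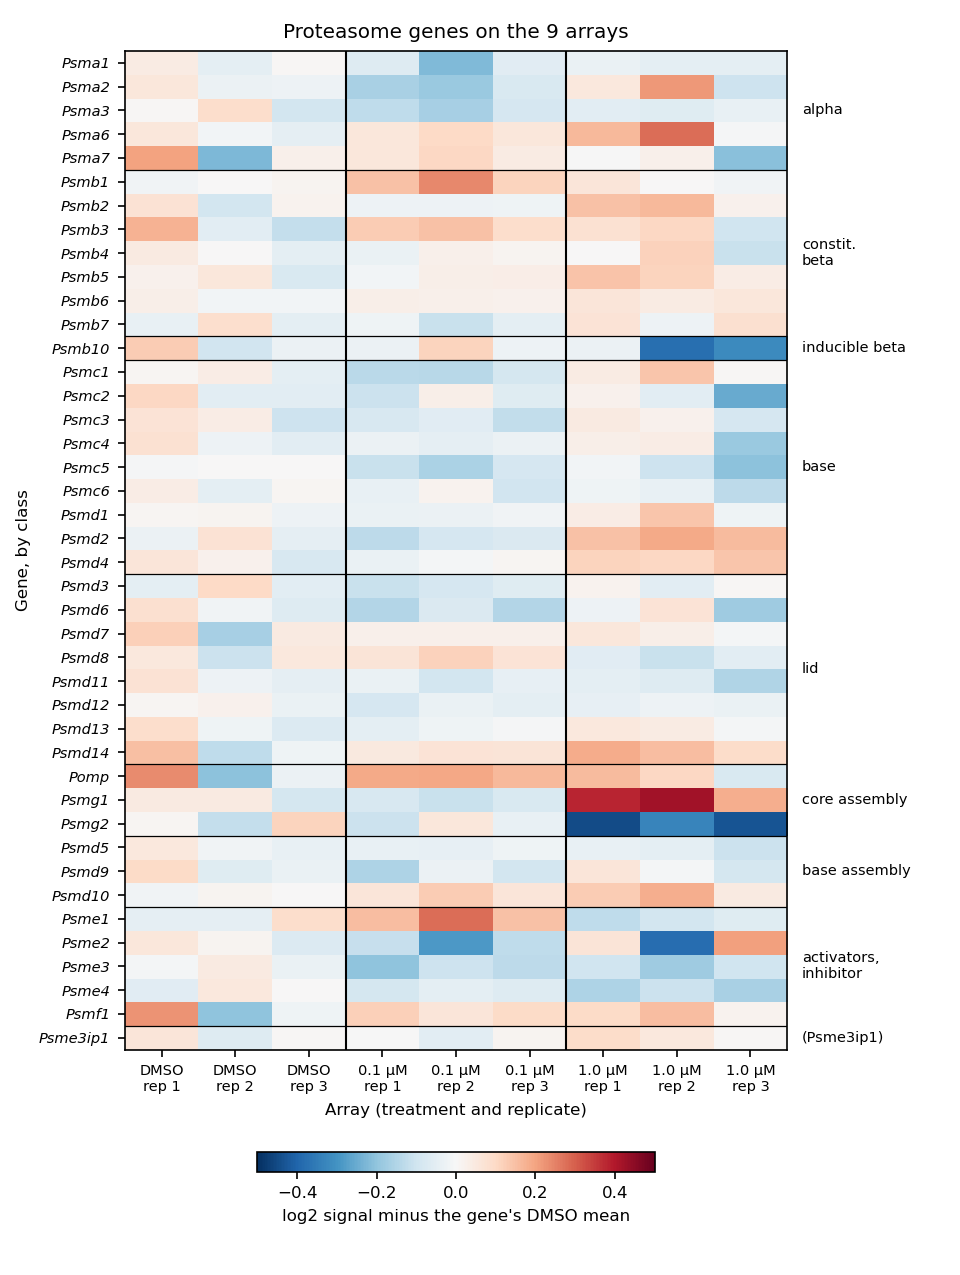
Each row is a proteasome gene, grouped by class, and each column an array (3 replicates of DMSO, then of 0.1 μM 5-ITu, then of 1.0 μM). Colour gives the log2 signal minus the gene's mean over the DMSO arrays. The strongest colours lie at 1.0 μM, on all 3 arrays in Psmg2 (lower) and on replicates 1 and 2 in Psmg1 (higher). Others there are those of replicates 2 and 3 in Psmb10 and replicate 2 in Psme2 (lower). Psmg1 is paler on replicate 3, and most other rows are pale.

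At 0.1 μM 5-ITu, 0 of 42 genes were called by limma against DMSO, where 6.23% of tested probe sets were called, 4.66% higher and 1.56% lower. At an unadjusted limma p under 0.05 there were 5 (Psma3, Psmb1, Psmc1, Psme1 and Psme3), where 25.1% of probe sets passed. The 3 arrays at 0.1 μM and the 3 in DMSO did not overlap for 13 of 42 genes, or 31.0%, beside 33.5% of all tested probe sets. Of these, 4 were higher at 0.1 μM (Psmb1, Psmd8, Psmd10 and Psme1, beside 17.8% of probe sets) and 9 lower (Psma1, Psma2, Psmc1, Psmc5, Psmd2, Psmd3, Psmd6, Psme2 and Psme3, beside 15.8%).

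At 1.0 μM 5-ITu, 4 of 42 genes were called against DMSO, where 27.7% of tested probe sets were called. Psmg1 and Psmd2 rose (13.4% of probe sets did), and Psmg2 and Psme4 fell (14.3% did). At an unadjusted p under 0.05 there were 8 of 42, the other 4 being Psmb10, Psmd4, Psmd10 and Psme3, where 40.5% of probe sets passed. The arrays of 1.0 μM and DMSO did not overlap for 11 of 42 genes, beside 38.7% of probe sets. Of these, 5 were higher at 1.0 μM (Psmb6, Psmd2, Psmd4, Psmd10 and Psmg1, beside 18.6%) and 6 lower (Psmc5, Psmd11, Psme1, Psme3, Psme4 and Psmg2, beside 20%). Between the doses, 6 of 42 genes were called, where 29.7% of probe sets were called. Psmg1, Psmd2 and Psmc1 were higher at 1.0 μM than at 0.1 μM (12.3% of probe sets were), and Psmg2, Psme1 and Psmb1 were lower (17.4% were). The arrays of the doses did not overlap for 18 of 42 genes, beside 51.6% of probe sets, with 11 higher at 1.0 μM, beside 23.6%, and 7 lower, beside 28.1%. The same 6 genes passed limma's moderated F over the 3 conditions, where 35.3% of probe sets passed.

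The assembly factors of the core particle held the largest changes of the whole set. Psmg1 and Psmg2 encode partners in a heterodimer that holds the alpha subunits while their ring forms, and the pair moved in opposite directions at 1.0 μM. Psmg1 had log2 signals of 10.51, 10.51 and 10.38 in DMSO, 10.39, 10.35 and 10.39 at 0.1 μM, and 10.85, 10.89 and 10.65 at 1.0 μM. All 3 arrays at 1.0 μM lay above the other 6. Psmg1 rose by 0.33 at 1.0 μM against DMSO, a 1.26-fold change (adjusted p = 0.0066 from limma, standard error 0.067), and was 0.42 higher than at 0.1 μM (adjusted p = 0.0022 from limma).

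Psmg2 had log2 signals of 10.60, 10.47 and 10.70 in DMSO, 10.48, 10.65 and 10.55 at 0.1 μM, and 10.14, 10.26 and 10.16 at 1.0 μM. Here the arrays of 1.0 μM were the lowest 3 of the 9, while DMSO and 0.1 μM overlapped. Its change at 1.0 μM against DMSO was -0.40, or 0.756-fold (standard error 0.069, adjusted p = 0.0028 from limma), and against 0.1 μM it was -0.37 (adjusted p = 0.0042 from limma). At 0.1 μM, Psmg1 changed by -0.09 (interval -0.24 to 0.06) and Psmg2 by -0.03 (interval -0.19 to 0.13). The calls of both genes held without any single array. Pomp, the chaperone of beta ring formation, changed by 0.18 at 0.1 μM (interval -0.05 to 0.41) and by 0.06 at 1.0 μM (interval -0.17 to 0.29). Its DMSO arrays read 10.62, 10.18 and 10.35, the widest spread of any of the 42 genes in DMSO (SD 0.223, n = 3).

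**Figure D2:**
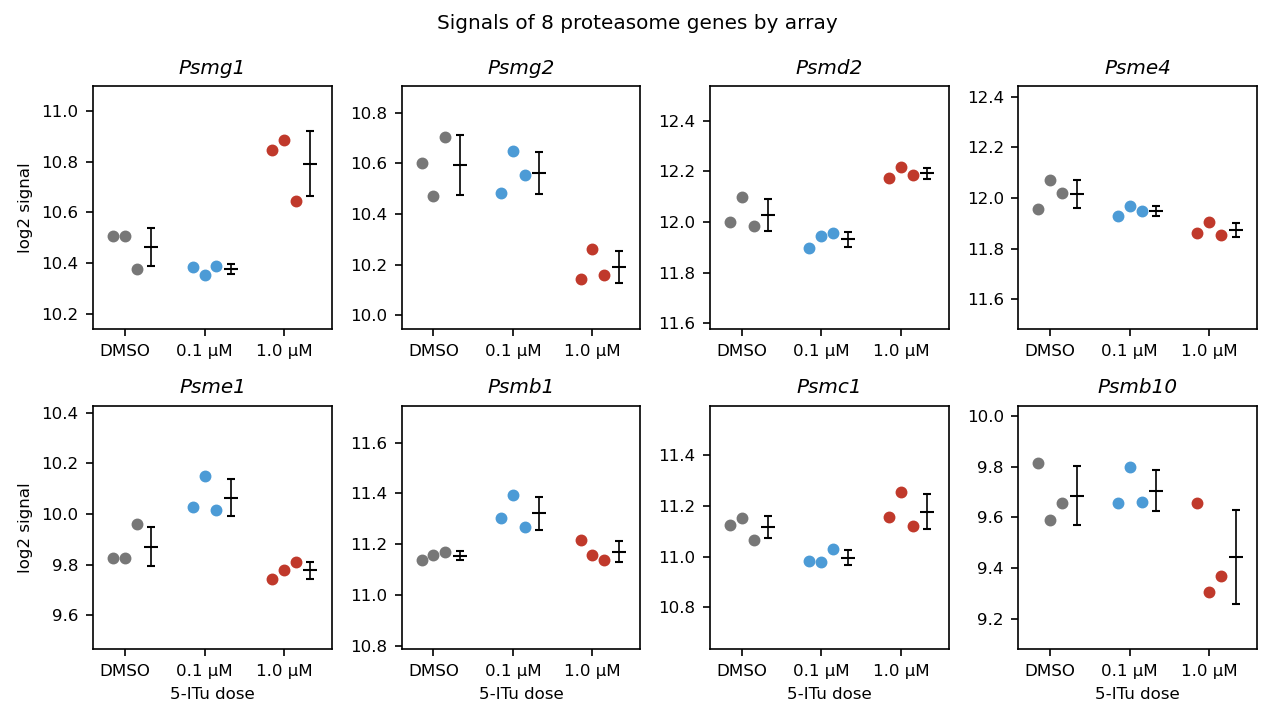
Log2 signal on each array (points, 3 per condition) of the 7 proteasome genes called in any comparison and of the inducible subunit Psmb10, with the mean and SD to the right of the points. All panels span the same range on the log2 scale. Psmg1 at 1.0 μM lies above and Psmg2 below all other arrays, Psme1 and Psmb1 are highest at 0.1 μM, and the arrays of Psmb10 overlap.

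The proximal promoters of the genes that were higher at 1.0 μM than at another condition are shown with those of Psmb5 and Psmb6. This last pair are active subunits whose promoters hold TGACNNNGC, the core of the antioxidant response element through which Nfe2l1 and Nfe2l2 act. Each run is the 200 bases before the RefSeq start site in GRCm38.p6, 5′ to 3′ on the gene's strand, and capitals mark TGACNNNGC or CCAAT.
Psmg1 (chr16:95990961-95991160, minus strand): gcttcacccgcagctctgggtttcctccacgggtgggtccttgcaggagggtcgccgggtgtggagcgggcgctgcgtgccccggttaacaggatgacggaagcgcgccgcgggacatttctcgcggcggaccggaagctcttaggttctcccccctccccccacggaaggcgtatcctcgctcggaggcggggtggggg
Psmd2 (chr16:20651452-20651651, plus strand): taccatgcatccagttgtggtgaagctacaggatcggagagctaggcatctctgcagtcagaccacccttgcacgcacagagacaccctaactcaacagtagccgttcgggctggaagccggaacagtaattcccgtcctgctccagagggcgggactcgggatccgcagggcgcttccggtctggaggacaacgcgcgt
Psmc1 (chr12:100110002-100110201, plus strand): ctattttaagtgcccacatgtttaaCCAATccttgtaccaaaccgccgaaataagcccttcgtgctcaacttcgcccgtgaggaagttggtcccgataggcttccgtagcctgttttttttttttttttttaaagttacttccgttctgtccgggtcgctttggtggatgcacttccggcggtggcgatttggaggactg
Psmb5 (chr14:54617996-54618195, minus strand): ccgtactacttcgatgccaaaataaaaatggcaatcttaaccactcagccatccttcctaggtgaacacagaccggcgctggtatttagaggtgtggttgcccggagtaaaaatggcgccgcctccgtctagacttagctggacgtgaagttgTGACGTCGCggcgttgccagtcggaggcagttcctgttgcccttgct
Psmb6 (chr11:70525157-70525356, plus strand): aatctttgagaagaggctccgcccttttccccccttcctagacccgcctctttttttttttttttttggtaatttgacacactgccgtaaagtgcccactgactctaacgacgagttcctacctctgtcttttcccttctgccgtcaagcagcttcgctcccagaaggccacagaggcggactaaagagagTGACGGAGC

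Over windows of 250 bases before to 50 after the start, on both strands, TGACNNNGC was found for 6 of the 35 proteasome genes with a window, or 17.1%, and for 14% of 27025 genes. The 6 are Psmb5, Psmb6, Psmc6, Psmd9, Psmd12 and Psme4, whose changes at 1.0 μM against DMSO lay between -0.14 and 0.10. CCAAT was found for 13 of the 35, or 37.1%, and for 41.1% of all genes. It lay in 6 of 9 core particle promoters, which include all 5 alpha subunits, and in 4 of 14 of the regulatory particle. A match of one motif can share a base with a match of the other, and a match describes the letters of the window only.

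The alpha subunits form the outer rings of the core particle and its gate, and 5 of them were measured. None was called at either dose, where 6.23% of tested probe sets were called at 0.1 μM and 27.7% at 1.0 μM. Psma6 had the highest change of the 5 at 1.0 μM, 0.15 (interval -0.01 to 0.30), and Psma7 the lowest, -0.06 (interval -0.29 to 0.16). At 0.1 μM, Psma1, Psma2 and Psma3 changed by -0.11, -0.14 and -0.12 and Psma6 and Psma7 by 0.07 each. Psma2 was 0.20 higher at 1.0 μM than at 0.1 μM, with an adjusted p of 0.078 from limma. Psma4 was represented only by a probe set that also names AY074887, which read 0.04 at 0.1 μM and 0.0023 at 1.0 μM against DMSO. Psma5 and Psma8 were not analysed here.

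The 7 constitutive beta subunits were measured in full, and none was called against DMSO. Of tested probe sets, 6.23% were called at 0.1 μM and 27.7% at 1.0 μM. The subunit with the chymotrypsin-like site, Psmb5, had log2 signals of 12.68, 12.72 and 12.59 in DMSO, 12.65, 12.69 and 12.69 at 0.1 μM, and 12.81, 12.77 and 12.70 at 1.0 μM. The arrays of 1.0 μM lay above those of 0.1 μM and overlapped those of DMSO. Its change was 0.02 at 0.1 μM (interval -0.10 to 0.13) and 0.10 at 1.0 μM (interval -0.02 to 0.21). Psmb6, with the caspase-like site, changed by 0.03 and 0.05 (intervals -0.06 to 0.11 and -0.03 to 0.14), and Psmb7, with the trypsin-like site, by -0.06 and 0.04 (intervals -0.18 to 0.06 and -0.08 to 0.16). All 7 constitutive beta subunits read above DMSO at 1.0 μM, by 0.0013 (Psmb4) to 0.11 (Psmb2), where 48.7% of tested probe sets were above 0. Apart from Psmb6, their arrays of 1.0 μM overlapped those of DMSO. For Psmb3 and Psmb4 this sign did not hold without DMSO replicate 3, at 8.58 and 11.44. The other DMSO arrays read 8.88 and 8.65 for Psmb3 and 11.54 and 11.49 for Psmb4. The means at 1.0 μM were 8.73 and 11.49.

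Psmb1, a beta subunit without a protease site, was the exception between the doses. Its log2 signals were 11.14, 11.16 and 11.17 in DMSO, 11.30, 11.40 and 11.27 at 0.1 μM, and 11.22, 11.16 and 11.14 at 1.0 μM. The 3 arrays at 0.1 μM lay above the other 6, and those of 1.0 μM overlapped DMSO. The change was 0.17 at 0.1 μM (interval 0.06 to 0.27, adjusted p = 0.069 from limma), 0.02 at 1.0 μM, and -0.15 at 1.0 μM against 0.1 μM (adjusted p = 0.040 from limma). The call between the doses was lost in 6 of 9 fits that left out 1 array, among them each fit without an array of 0.1 μM.

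Psmb10 is the inducible subunit that replaces Psmb7 in immunoproteasomes, which form after interferon. It was the only inducible beta subunit measured, and Psmb8, Psmb9 and Psmb11 were not analysed here. Psmb10 had log2 signals of 9.81, 9.59 and 9.65 in DMSO, 9.65, 9.80 and 9.66 at 0.1 μM, and 9.65, 9.31 and 9.37 at 1.0 μM. Replicates 2 and 3 of 1.0 μM were the lowest of all arrays, and replicate 1 lay among the others. The change was -0.24 at 1.0 μM against DMSO (interval -0.45 to -0.03, adjusted p = 0.085 from limma) and -0.26 against 0.1 μM (adjusted p = 0.064 from limma), and neither passed. Without replicate 1 of 1.0 μM it passed in both comparisons.

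The base of the regulatory particle was represented by its 6 ATPases (Psmc1 to Psmc6), the scaffold subunits Psmd1 and Psmd2 and the ubiquitin receptor Psmd4. Psmd2 read 12.00, 12.10 and 11.98 in DMSO, 11.90, 11.94 and 11.96 at 0.1 μM, and 12.17, 12.22 and 12.19 at 1.0 μM. The 3 conditions did not overlap, with 0.1 μM lowest and 1.0 μM highest. Psmd2 rose by 0.16 at 1.0 μM against DMSO, a 1.12-fold change (adjusted p = 0.026 from limma, standard error 0.046), and was 0.26 higher than at 0.1 μM (adjusted p = 0.0034 from limma). The change at 0.1 μM was -0.10 (interval -0.20 to 0.01). The call against DMSO was lost without DMSO replicate 1 (0.15, adjusted p = 0.057 from limma), without DMSO replicate 3 (0.14, adjusted p = 0.085 from limma) or without replicate 2 of 1.0 μM (0.15, adjusted p = 0.080 from limma), and the call between the doses held without any single array.

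The ATPase gene Psmc1 had log2 signals of 11.13, 11.15 and 11.07 in DMSO, 10.98, 10.98 and 11.03 at 0.1 μM, and 11.16, 11.25 and 11.12 at 1.0 μM. The arrays of 0.1 μM were the lowest 3, and those of DMSO and 1.0 μM overlapped. Psmc1 was 0.18 higher at 1.0 μM than at 0.1 μM (adjusted p = 0.022 from limma, standard error 0.049), and its changes against DMSO were -0.12 at 0.1 μM (adjusted p = 0.17 from limma) and 0.06 at 1.0 μM (adjusted p = 0.38 from limma). The call was lost without any 1 of the arrays of 0.1 μM and without replicate 2 of 1.0 μM. The ATPase Psmc5 had the lowest change of the base at 1.0 μM, -0.11 (interval -0.23 to 0.01). Psmd4 changed by 0.12 at that dose (interval 0.01 to 0.22, adjusted p = 0.089 from limma) with its 3 arrays above DMSO. At 0.1 μM all 9 base genes read below DMSO and none was called, where 49.5% of tested probe sets were below 0 and 6.23% called. The changes ran from -0.12 (Psmc1) to -0.012 (Psmd4). For Psmc2, Psmc4 and Psmd4 this rested on DMSO replicate 1, at 10.39, 12.39 and 10.29. Their 0.1 μM means of 10.24, 12.28 and 10.22 lay within or above DMSO replicates 2 and 3. Those replicates read 10.23 and 10.23, 12.29 and 12.26, and 10.25 and 10.15.

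Of the lid, 8 subunits were measured and none was called in any comparison. Of tested probe sets, 6.23% were called at 0.1 μM, 27.7% at 1.0 μM and 29.7% between the doses. The highest change at 1.0 μM was that of Psmd14, which cuts the ubiquitin chain from the substrate, 0.14 (interval -0.01 to 0.29), and the lowest that of the structural subunit Psmd11, -0.09 (interval -0.20 to 0.02). Psmd14 read 11.32, 11.04 and 11.14 in DMSO, 11.21, 11.23 and 11.23 at 0.1 μM, and 11.35, 11.32 and 11.26 at 1.0 μM, so DMSO replicate 1 reached into the range of 1.0 μM. Psmd8, a further lid subunit, changed by -0.16 at 1.0 μM against 0.1 μM, with an adjusted p of 0.051 from limma. Psmd7 had the same deposited value on all 3 arrays of 0.1 μM, and such identical triplets occurred for 25 probe sets in DMSO, 65 at 0.1 μM and 14 at 1.0 μM.

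**Figure D3:**
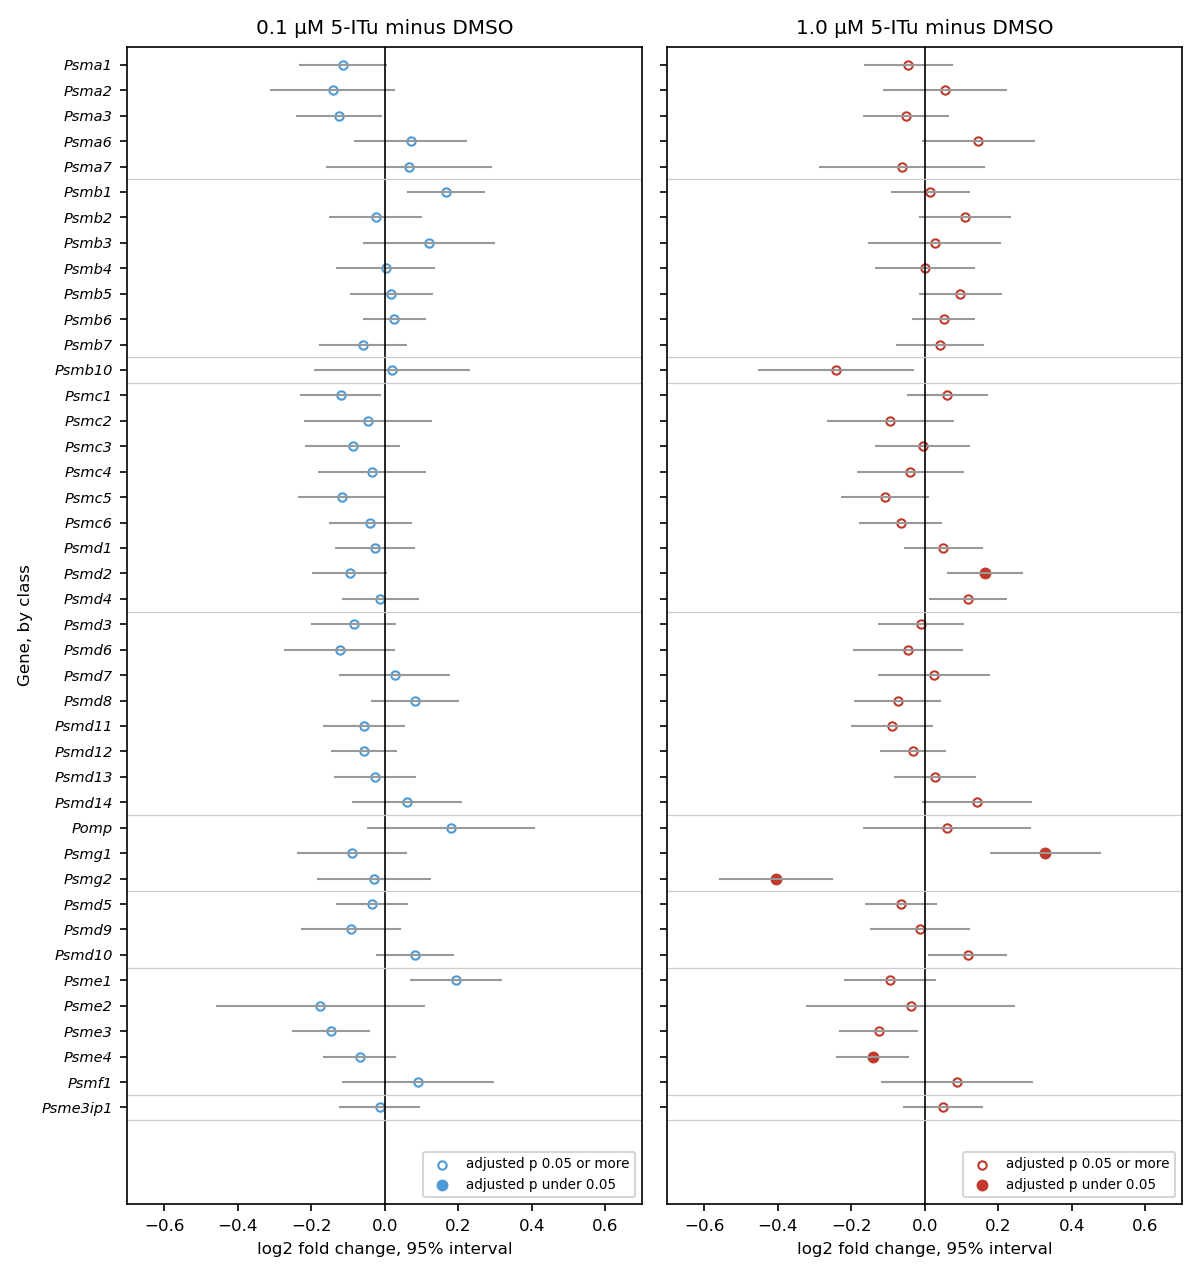
Log2 fold change of each proteasome gene at 0.1 μM (left) and 1.0 μM 5-ITu (right) against DMSO, with its 95% interval from the fit over 9 arrays. Filled points passed an adjusted p under 0.05. No point is filled at 0.1 μM, and at 1.0 μM those of Psmd2, Psmg1, Psmg2 and Psme4 are.

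The chaperones that assemble the base were not called in any comparison. Of tested probe sets, 6.23% were called at 0.1 μM, 27.7% at 1.0 μM and 29.7% between the doses. Psmd10 changed by 0.08 at 0.1 μM and by 0.12 at 1.0 μM (interval 0.01 to 0.22, adjusted p = 0.096 from limma), and its arrays at both doses lay above those of DMSO. Psmd5 changed by -0.06 at 1.0 μM (interval -0.16 to 0.03) and Psmd9 by -0.01 (interval -0.15 to 0.12).

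Among the activators and the inhibitor, Psme1 stood out between the doses. It encodes a subunit of the ring that, with Psme2, caps the core particle in place of the regulatory particle and is induced by interferon. Psme1 had log2 signals of 9.83, 9.83 and 9.96 in DMSO, 10.03, 10.15 and 10.02 at 0.1 μM, and 9.74, 9.78 and 9.81 at 1.0 μM. The conditions did not overlap, with 0.1 μM highest and 1.0 μM lowest. Its change at 1.0 μM against 0.1 μM was -0.29, or 0.819-fold (standard error 0.056, adjusted p = 0.0053 from limma). Against DMSO its changes were 0.19 at 0.1 μM (interval 0.07 to 0.32, adjusted p = 0.072 from limma) and -0.09 at 1.0 μM (interval -0.22 to 0.03). The call between the doses held without any single array, and without DMSO replicate 3 the change at 0.1 μM was called as well.

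Its partner Psme2 did not follow this order. It read 8.83, 8.79 and 8.71 in DMSO, 8.66, 8.49 and 8.65 at 0.1 μM, and 8.84, 8.40 and 8.98 at 1.0 μM, and replicate 2 of 1.0 μM lay under background. Psme2 was the only 1 of the 42 genes that was not above background on all 9 arrays. Its SD of 0.304 at 1.0 μM was the widest of any gene in any condition, and its changes were -0.18 at 0.1 μM (interval -0.46 to 0.11) and -0.04 at 1.0 μM (interval -0.32 to 0.25).

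Psme4 encodes the large single-chain activator known from the mouse testis, where it acts on acetylated histones. It had log2 signals of 11.96, 12.07 and 12.02 in DMSO, 11.93, 11.97 and 11.95 at 0.1 μM, and 11.86, 11.91 and 11.85 at 1.0 μM, with the arrays of 1.0 μM the lowest 3. Psme4 changed by -0.14 at 1.0 μM against DMSO, or 0.906-fold (standard error 0.044, adjusted p = 0.040 from limma). This call held in 1 of the 9 fits that left out an array, the one without DMSO replicate 1, and was lost in the other 8, where the changes were -0.16 to -0.11. The nuclear activator gene Psme3 changed by -0.15 at 0.1 μM (adjusted p = 0.095 from limma) and by -0.13 at 1.0 μM (adjusted p = 0.077 from limma), with all 6 treated arrays under the DMSO arrays. Psmf1, the inhibitor of the core particle, changed by 0.09 at either dose (intervals -0.12 to 0.30). Psme3ip1 changed by -0.01 at 0.1 μM and 0.05 at 1.0 μM, and neither change was called.

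**Figure D4:**
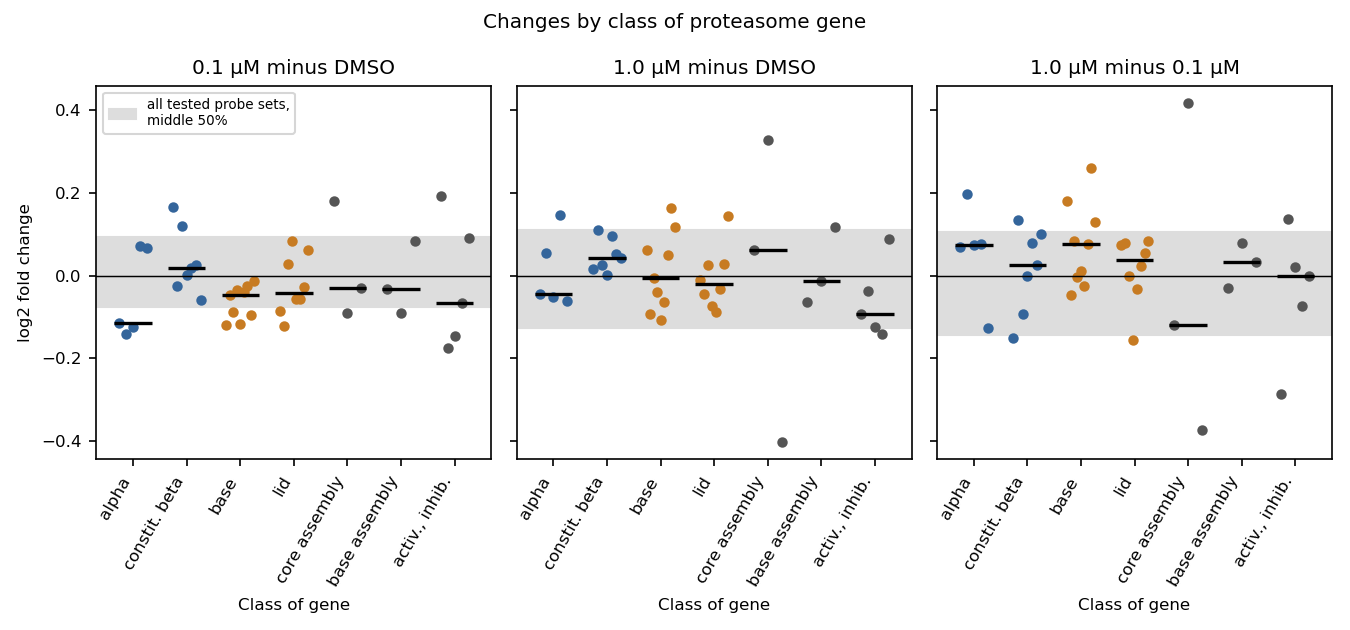
Each point is a gene and each bar the median of its class, for the 7 classes with 3 or more genes (Psmb10 and Psme3ip1 are not drawn). The vertical axis is the log2 fold change of 0.1 μM against DMSO, 1.0 μM against DMSO and 1.0 μM against 0.1 μM, and the grey band holds the middle 50% of all tested probe sets. The drawn classes centre within the band, apart from the alpha subunits at 0.1 μM (median -0.11), and in both comparisons with 1.0 μM the widest spread is that of the 3 core assembly factors.

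The core particle (12 alpha and constitutive beta genes) was then set beside the regulatory particle (17 base and lid genes). The median change of the core was 0.0098 at 0.1 μM and 0.034 at 1.0 μM against DMSO, and that of the regulatory particle was -0.046 and -0.0099. The core was split by class. Its alpha subunits had medians of -0.11 and -0.044, below the regulatory particle at both doses. Its constitutive beta subunits had medians of 0.017 and 0.042, above the regulatory particle. The difference of the medians was 0.056 at 0.1 μM and 0.044 at 1.0 μM. In the core, 7 of 12 genes read above DMSO at 0.1 μM and 9 of 12 at 1.0 μM, and in the regulatory particle 3 of 17 and 7 of 17. Over all tested probe sets the shares above 0 were 50.5% at 0.1 μM and 48.7% at 1.0 μM. No core gene was called against DMSO at either dose, and 1 regulatory gene (Psmd2) was called at 1.0 μM. Over all tested probe sets, 6.23% were called at 0.1 μM and 27.7% at 1.0 μM. As genes of one particle share their arrays, these medians are given without a test.

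Array by array, the difference of core minus regulatory medians was -0.015, 0.0034 and 0.011 in DMSO, 0.034, 0.058 and 0.069 at 0.1 μM, and 0.031, 0.041 and 0.0036 at 1.0 μM, each gene being taken from its DMSO mean. The 3 arrays at 0.1 μM lay above the DMSO arrays, while replicate 3 at 1.0 μM lay within them. At 1.0 μM the difference of 0.044 came to 0.020 without replicate 3 of that dose and to 0.067 without DMSO replicate 3. Between the doses the difference was 0.017, and it ran from -0.016 without replicate 2 of 0.1 μM to 0.030 without replicate 2 of 1.0 μM.

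**Figure D5:**
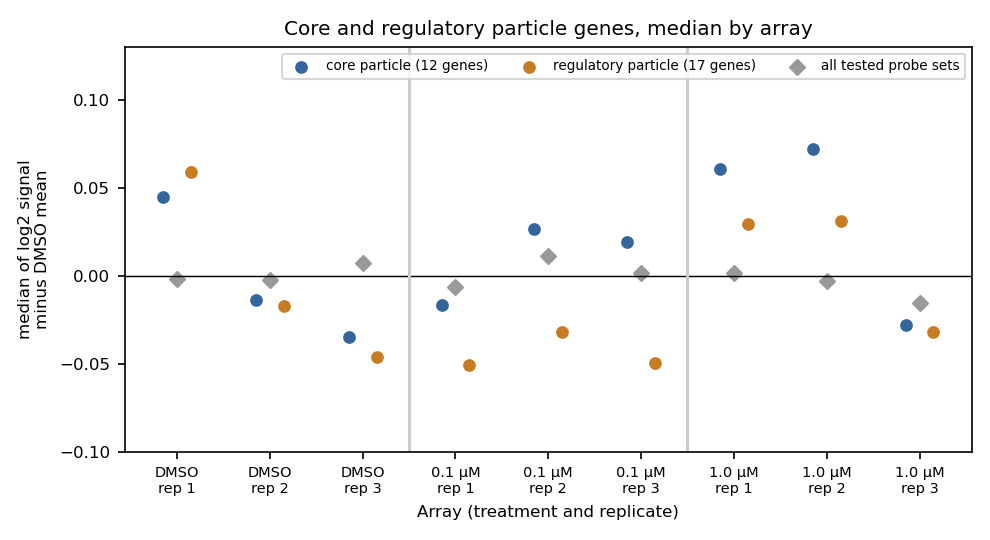
Median over the 12 core particle genes, the 17 regulatory particle genes and all tested probe sets of the log2 signal minus the gene's DMSO mean, for each of the 9 arrays. Both particles lie high on DMSO replicate 1 and on replicates 1 and 2 of 1.0 μM, and low on DMSO replicate 3 and replicate 3 of 1.0 μM. The core median is above the regulatory median on every array except DMSO replicate 1.

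Many proteasome genes were high or low on the same array of a condition. DMSO replicate 1 was the highest DMSO array for 27 of the 42 genes, beside 35.1% of all tested probe sets, and DMSO replicate 3 the lowest for 21, beside 25.0%. Replicate 3 of 1.0 μM was the lowest of its condition for 28 of the 42, beside 44.1% of probe sets. On these 3 arrays the median of the 42 genes, taken from the DMSO means, was 0.054, -0.033 and -0.044, against -0.0018, 0.0072 and -0.016 over all tested probe sets. Median SDs of the 42 genes were 0.070 in DMSO, 0.031 at 0.1 μM and 0.061 at 1.0 μM, against 0.086, 0.042 and 0.075 over all tested probe sets.

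With DMSO replicate 1 and replicate 3 of 1.0 μM both left out, an alternative chosen after the data were seen, 9 of 42 genes were called at 1.0 μM against DMSO, where 31.4% of probe sets were called. These were Psmg1, Psma6, Psmb2, Psmb3, Psmd14, Pomp and Psmf1 as higher and Psmg2 and Psme4 as lower, so Psmd2 was lost. At 0.1 μM, Pomp and Psmb3 were then called, where 8.96% of probe sets were. With array weights in the fit, 11 of 42 genes were called at 1.0 μM, where 37.2% of probe sets were.

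A further probe set names Psmd1 together with Armc9, a gene of cilia, and is therefore outside the rule. It read 8.68, 8.55 and 8.58 in DMSO, 8.58, 8.61 and 8.60 at 0.1 μM, and 9.09, 9.07 and 8.89 at 1.0 μM. All 3 arrays at 1.0 μM lay above the other 6, and the change against DMSO was 0.41 (adjusted p = 0.0013 from limma). The probe set of Psmd1 alone changed by 0.05 (interval -0.06 to 0.16). Which transcript the shared probe set reports was not tested.

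Around the proteasome, 29 of 47 listed genes of proteasome regulation, shuttling and substrate unfolding were tested. None was called at 0.1 μM against DMSO, where 6.23% of all tested probe sets were. At 1.0 μM against DMSO 4 of 29 fell and 0 rose, beside 14.3% and 13.4% of all tested probe sets. Between the doses, 2 of 29 were higher at 1.0 μM (Ecpas and Nsfl1c), beside 12.3%. Lower there were 4 of 29 (Akirin2, Bach1, Ube3a and Ubqln4), beside 17.4%. Nfe2l1 changed by -0.09 at 0.1 μM (interval -0.24 to 0.06) and by -0.12 at 1.0 μM (interval -0.27 to 0.04). Its DMSO arrays read 10.41, 10.66 and 10.40 and the treated arrays 10.34 to 10.41, so DMSO replicate 2 alone stood apart. Its relative Nfe2l2 changed by 0.05 and 0.01 (intervals -0.07 to 0.17 and -0.11 to 0.14). Sem1, a small lid subunit whose symbol lies outside the rule, changed by 0.06 and 0.20 (adjusted p = 0.70 and adjusted p = 0.10 from limma). Adrm1 had no tested probe set of its own.

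The genes of this list that fell at 1.0 μM against DMSO were Ube3a, a ubiquitin ligase that binds the proteasome (-0.35, adjusted p = 0.0018 from limma), Ubqln2, a shuttle for ubiquitinated proteins (-0.41, adjusted p = 0.0078 from limma), Akirin2, which brings proteasomes into the nucleus (-0.20, adjusted p = 0.010 from limma), and Bach1, a repressor at antioxidant response elements (-0.35, adjusted p = 0.024 from limma). Ubqln2 read 10.99, 10.99 and 10.86 in DMSO, 10.76, 10.78 and 10.77 at 0.1 μM, and 10.70, 10.59 and 10.32 at 1.0 μM, and the 3 conditions did not overlap. Leaving out 1 array at a time, 3 to 5 genes of the list were called at 1.0 μM, beside 19.6% to 27.8% of all tested probe sets. At 0.1 μM the smallest p-values were those of the ubiquitin ligase subunit Fbxo7 (0.21, adjusted p = 0.095 from limma), the partner of Nfe2l1 Mafg (-0.18, adjusted p = 0.088 from limma), the autophagy receptor Sqstm1 (0.14, adjusted p = 0.11 from limma) and Ube3a (-0.15, adjusted p = 0.13 from limma). Mafg was above background on 5 of 9 arrays, and its mean at 0.1 μM, 8.40, lay under the threshold of 8.46.

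Genes of interferon signalling and antigen presentation were read beside Psmb10, Psme1 and Psme2, and 9 of 28 listed were tested. At 0.1 μM, Tap1, a subunit of the peptide transporter (0.49, adjusted p = 0.0082 from limma), and B2m, the light chain of class I molecules (0.39, adjusted p = 0.030 from limma), rose, and none fell. This was 2 of 9 genes higher, beside 4.66% of all tested probe sets. It was 1 of 9 in each fit without DMSO replicate 1 or 2, any array of 0.1 μM or replicate 2 of 1.0 μM. In those fits 1.44% to 4.95% of all tested probe sets were called in either direction. At 1.0 μM, Tap1 (0.31, adjusted p = 0.017 from limma), the interferon signalling gene Irf9 (0.25, adjusted p = 0.0060 from limma) and the kinase gene Jak1 (0.29, adjusted p = 0.017 from limma) rose, 3 of 9 beside 13.4% of all tested probe sets, and none fell. B2m read 11.78, 11.75 and 12.01 in DMSO, 12.17, 12.33 and 12.23 at 0.1 μM, and 11.66, 11.86 and 11.91 at 1.0 μM, so that, as for Psme1, the arrays of 0.1 μM were the highest 3. The class I gene H2-K1 shared this order. The remaining tested genes of the list did not, and Irf9 was highest at 1.0 μM. The share of all probe sets with this order was not counted. The change of B2m at 1.0 μM against 0.1 μM was -0.43 (adjusted p = 0.0060 from limma). Of the other members, Irf1 and Ifngr1 changed by -0.17 and -0.10 at 0.1 μM and by 0.02 and -0.12 at 1.0 μM, and none of these 4 changes was called.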

How the data were processed

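RNA of E14 cells from 3 biological replicates per condition, as the study's methods call them, was measured on 9 arrays. The labels give no culture or date, so p-values may cover technical spread only. Per the labels, the authors summarised the probe signals by RMA in Affymetrix Expression Console, and the methods name GeneSpring and a background threshold. The deposited values are log2 signals and were used as given, with no array left out. Probe sets above log2 8.46 on at least 3 of 9 arrays (9911) were tested in 1 fit of 3 groups (lmFit, contrasts.fit and eBayes of limma 3.58.1 in R 4.3.3). Symbols came from the platform annotation, and all 42 genes were found in RefSeq. Of 58 RefSeq symbols that match the rule, 6 were pseudogenes. Among the 10476 deposited probe sets, 15 of the 58 had none of their own and 1 only a shared one. Whether the array carries probes for these 15 was not checked.

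The members, gene lists and tests were chosen with earlier results of these data known. Named with values are called members, the highest and lowest member of each class at 1.0 μM, the active subunits, Nfe2l1, Nfe2l2, Adrm1 and Sem1, and up to 4 genes of each other list with the smallest p at each dose. Any other gene was named after its values were seen. The methods' test was a one-way comparison of the 3 groups, run as an alternative. Other alternatives were the filter, the samples fitted, a replicate block, quantile normalization, array weights, a trended and robust variance, 1 probe set for each gene, thresholds, the members of the core and each array left out. The scripts were tested on simulated data. An exact permutation test of 3 arrays against 3 cannot go below p = 0.10 and was not used. On arrays the signal over background stands for depth, and precision is limited by their number. Promoters came from RefSeq windows of GRCm38.p6. The plots used Python 3.11.15 with matplotlib 3.10.9.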

Additional observations from a re-analysis of the deposited data

Results flagged for a closer look

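For 6 proteasome genes the change at 1.0 μM differed from the change at 0.1 μM by the direct test of the doses (adjusted p under 0.05 from limma, 29.7% of tested probe sets passing). The difference, 1.0 μM minus 0.1 μM, was 0.42 for Psmg1, 0.26 for Psmd2 and 0.18 for Psmc1, and -0.37 for Psmg2, -0.29 for Psme1 and -0.15 for Psmb1. Psme1 and Psmb1 read highest at 0.1 μM and Psmc1 lowest there. Neither dose passed against DMSO for Psme1, Psmb1 or Psmc1.

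The probe set shared by Psmd1 and Armc9, which the comparisons of the proteasome genes do not use, changed by 0.41 at 1.0 μM against DMSO.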

How the results depend on the processing

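Leaving out 1 array at a time, the proteasome genes called against DMSO numbered 0 to 1 higher and 0 to 0 lower at 0.1 μM, and 1 to 4 higher and 1 to 2 lower at 1.0 μM. Between the doses, 2 to 5 were higher and 2 to 4 lower. Of all tested probe sets, 1.44% to 7.85% were called at 0.1 μM in these fits, in either direction. The share was 19.6% to 27.8% at 1.0 μM and 18.1% to 32.6% between the doses. The core minus regulatory median ran from 0.041 to 0.067 at 0.1 μM, from 0.020 to 0.067 at 1.0 μM and from -0.016 to 0.030 between the doses. Of the interferon and antigen presentation genes, 1 to 2 were called at 0.1 μM and 2 to 3 at 1.0 μM. The calls of Psmg1 and Psmg2 in both comparisons, and those of Psmd2 and Psme1 between the doses, held in these 9 fits.

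With only the compared groups fitted, 1 gene was higher (Psmg1) and 1 lower (Psmg2) at 1.0 μM against DMSO (17.2% of probe sets called). With quantile normalization, 1 was higher at 0.1 μM (Psmb1), 1 lower at 1.0 μM (Psmg2), and 5 higher between the doses (6.77%, 27.6% and 30.8% of probe sets called). With array weights, 8 were higher at 1.0 μM (37.2% of all tested probe sets called in either direction), and 11 higher and 5 lower between the doses (50.9%). At an adjusted p under 0.1, the counts were 2 higher and 1 lower at 0.1 μM, 4 and 4 at 1.0 μM, and 5 and 5 between the doses, where 13.4%, 36.8% and 38.4% of probe sets were called. With limma's unadjusted p under 0.05 and over 1.5-fold, 0 were higher and 0 lower at 1.0 μM and between the doses. With DMSO replicate 1 and replicate 3 of 1.0 μM left out together, chosen after the data were seen, 2 were higher at 0.1 μM, 7 at 1.0 μM and 6 between the doses (8.96%, 31.4% and 35% of probe sets called). With means in place of medians, core minus regulatory between the doses was -0.014. The cause of these differences was not tested.

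Deviations from the condition means correlated at -0.023 to 0.51 over 9 pairs of arrays with the same replicate number. Over 18 pairs of different numbers they correlated at -0.44 to 0.26. Between DMSO and 1.0 μM the pairs of the same number gave 0.51, 0.067 and 0.44, and those of different numbers -0.44 to 0.12. Whether the replicate numbers mark paired cultures was not tested. With the replicate number as a block, 2 genes were higher and 2 lower at 1.0 μM, 0 at 0.1 μM, and 3 higher and 4 lower between the doses, with Psmb10 added (30.8%, 8.17% and 32.5% of probe sets called). The methods' one-way analysis of variance over the 3 conditions gave 11 of 42 genes at an unadjusted p under 0.05, beside 42.5% of tested probe sets, and 7 after Benjamini-Hochberg adjustment, beside 24.7%. The moderated F called 6. With 3 arrays per condition, a gene whose interval holds 0 was not told from no change, and the interval bounds the size of change that remains possible.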
